A study of Mus musculus with 6 samples.

Results

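Amino acid transporters were examined in activated mouse B cells that lack hnRNPL, an RNA-binding protein that regulates splicing. The genes were chosen by symbol, taking the solute carrier families Slc1, Slc3, Slc6, Slc7, Slc36, Slc38 and Slc43 where the symbol ends in a number, which leaves out *Slc6a20a* and *Slc6a20b*, and 61 of the 55421 genes in the deposited table matched. Of these 61 genes, 25 averaged 10 or more normalized counts over the 6 libraries and were tested, 20 had reads but a lower mean, and 16 were at 0 in all 6 libraries. A normalized count is the number of reads on a gene divided by a factor that corrects for the depth of its library.

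RNA was sequenced from splenic B cells cultured for 24 h with LPS (5 µg/ml) and IL-4 (5 ng/ml) and sorted as GFP+. WT libraries (3) came from CD21-cre mice and hnRNPL-deficient libraries (3) from hnRNPL F/F CD21-cre mice, all adult, of either sex and on a C57BL6/J background. Both genotypes carried CD21-cre and a Rosa mT/mG reporter, in which GFP marks a cell where Cre has been active, so that WT cells are also Cre-expressing. CD21-cre is active mostly in peripheral B cells but also in some other tissues during development, so that these B cells came from animals in which the deletion was not limited to B cells. The study describes its replicates as separate mice, so that p-values measure the spread between these animals.

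A resting B cell that meets LPS and IL-4 enlarges and begins to divide, and it imports amino acids for protein synthesis. Several carriers work as pairs, in which a heavy chain such as Slc3a2 (CD98) brings a light chain such as Slc7a5 (LAT1) to the cell surface, while sodium-coupled carriers such as Slc38a1 and exchangers such as Slc1a5 (ASCT2) take up glutamine and other neutral amino acids. Amino acids inside the cell are sensed at the lysosome by the machinery that activates mTORC1, and their shortage is sensed by the kinase GCN2, which acts through the transcription factor ATF4.

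*Hnrnpl* itself had 24371, 25580 and 24174 normalized counts in WT libraries 1 to 3 and 2178, 1519 and 1297 in hnRNPL-deficient libraries 1 to 3, in accord with the labels. Reads on genes numbered 40395186 to 75180749 per library. All 8 B cell markers were expressed, with summed levels of 300106 to 379789 normalized counts in WT and 293271 to 344822 in hnRNPL-deficient libraries. Log2 fold changes of these markers by limma ranged from -0.55 to 0.46. At an adjusted p under 0.1, 2 were lower (25%, against 7.97% of all tested genes) and 1 was higher (12.5%, against 10.0%). The 7 T cell markers summed to 27.5 to 32.9 in WT and 32.3 to 43.9 in hnRNPL-deficient libraries, and the 5 plasma cell markers to 33957 to 39571 and 33296 to 36361. The plasma cell sum hides differences between its markers. Their log2 fold changes by limma ranged from -2.31 to -0.04 (median -0.06), and 1 of the 5 was called lower by the criterion given below (20%, against 4.08% of all tested genes). The 6 erythroid markers summed to 17.6 to 38.3 in WT and 55.0 to 84.8 in hnRNPL-deficient libraries. The 7 myeloid markers summed to 260 to 332 in WT and 1239 to 1382 in hnRNPL-deficient libraries, nearly all of it *Adgre1*, without which they summed to 7.8 to 24.4 and 12.3 to 21.6, with *S100a8* and *S100a9* at 0 in every library. The part of these other cells in the results was not tested. WT library 3 and hnRNPL-deficient library 2 had 98507 and 98219 normalized counts of *Xist*, a transcript of female cells, and the other libraries had under 8.

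The summed normalized counts of the transporter genes were lower in the hnRNPL-deficient libraries. The 61 genes summed to 120997, 114271 and 108115 normalized counts in WT libraries and to 89533, 88801 and 86914 in hnRNPL-deficient libraries, so that the groups did not overlap and the hnRNPL-deficient mean was 22.8% below WT. Without *Slc38a1*, the most abundant member by read count, the sum was 20.8% below WT. For 3 libraries against 3 the two-sided exact permutation test cannot give a p below 0.1, which was the p obtained for both sums (n = 3 per group). Fewer cells of a type and less mRNA per cell cannot be told apart in these bulk libraries. Normalized counts are relative to the other genes of a library, so a change in total mRNA per cell would not show in them.

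A gene was called changed when limma gave a Benjamini-Hochberg adjusted p under 0.1 over all 17640 tested genes and the fold change was at least 1.5. Of the 25 tested transporter genes, 3 were called lower (12%, against 4.08% of all tested genes), namely *Slc1a5*, *Slc43a3* and *Slc7a7*, and 2 were called higher (8.0%, against 7.28%), namely *Slc1a2* and *Slc36a4*. The share called higher was thus near the background. The families were chosen with earlier results of these data known, so these shares and those that follow describe the members and test nothing. By the adjusted p alone, whatever the fold, 8 genes were lower (32%, against 7.97%) and 2 were higher (8.0%, against 10.0%), and the other 15 did not pass. This count of 8 was 4 without WT library 2, 5 without WT library 3, 5 without hnRNPL-deficient library 1, and 5 by edgeR's quasi-likelihood test on reads of 5 libraries, against 6.02% of all genes in that test. Of these smaller counts only that of edgeR has a share of all genes beside it. A fit with a library removed has fewer values for every gene, not for the transporter genes alone. Its smaller count therefore cannot show whether the transporter genes came closer to the background. On the reads of 5 libraries edgeR called 3 of 25 tested transporter genes lower (against 3.83% of 18455 genes) and 2 higher (against 5.81%). DESeq2 called 4 of the 26 that it gave an adjusted p lower (against 3.95% of 18819 such genes) and 2 higher (against 6.34%). The median log2 fold change of the 25 genes was -0.22, against -0.03 over all tested genes, with 18 below 0 and 7 above 0. Groups did not overlap for 9 genes that were lower in hnRNPL-deficient libraries (16.3% of all tested genes) and for 4 that were higher (17.7%).

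**Figure D1:**
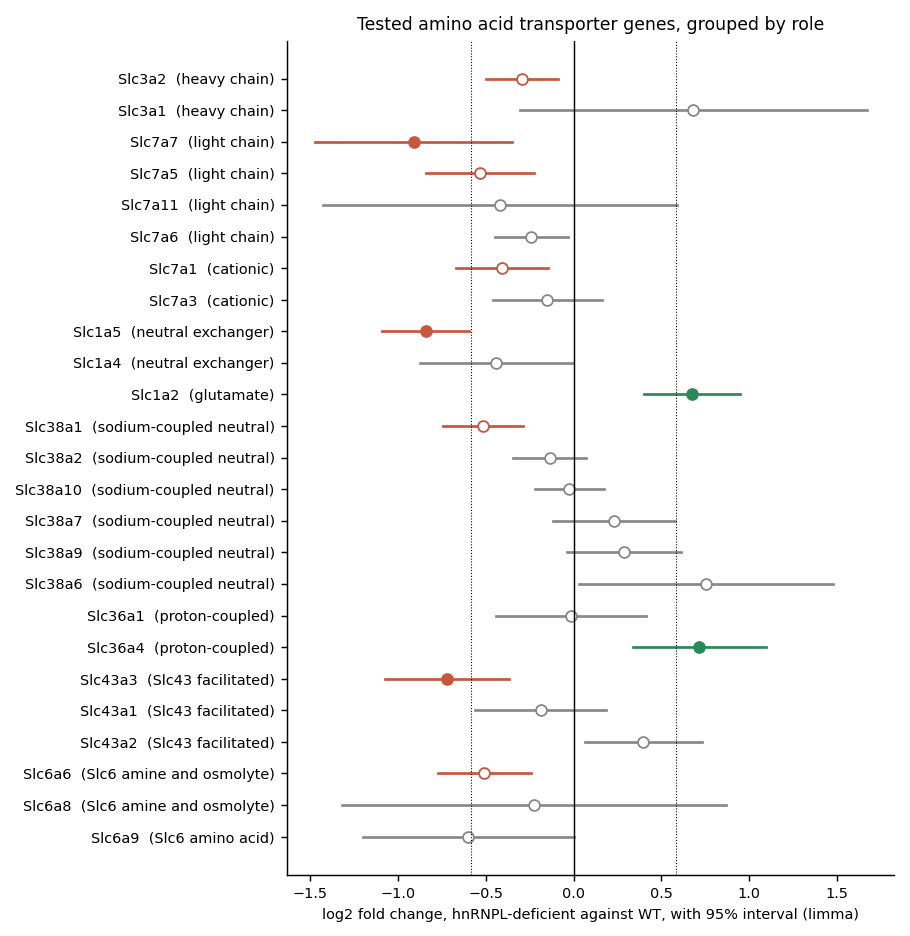
Log2 fold change of hnRNPL-deficient against WT for each of the 25 tested transporter genes (x axis) with its 95% interval from limma, grouped by role (y axis); filled symbols are called genes, coloured lines have an adjusted p under 0.1, and dotted lines mark a fold change of 1.5. The 3 called lower and 2 called higher genes lie in different role groups, and 18 of the 25 symbols are left of 0.

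Of the 13 transporter genes that averaged 1000 or more normalized counts, 7 were lower at an adjusted p under 0.1 (53.8%, against 12.4% of the 7102 tested genes above that mean), and 1 was higher (7.7%, against 7.36%). Of the 12 with a mean of 10 to under 1000, 1 was lower and 1 was higher (each 8.3%, against 4.99% lower and 11.8% higher of the 10538 tested genes in that range). Abundant genes usually have the smaller SE and can pass at smaller fold changes. These shares too describe members chosen with earlier results known and test nothing.

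**Figure D2:**
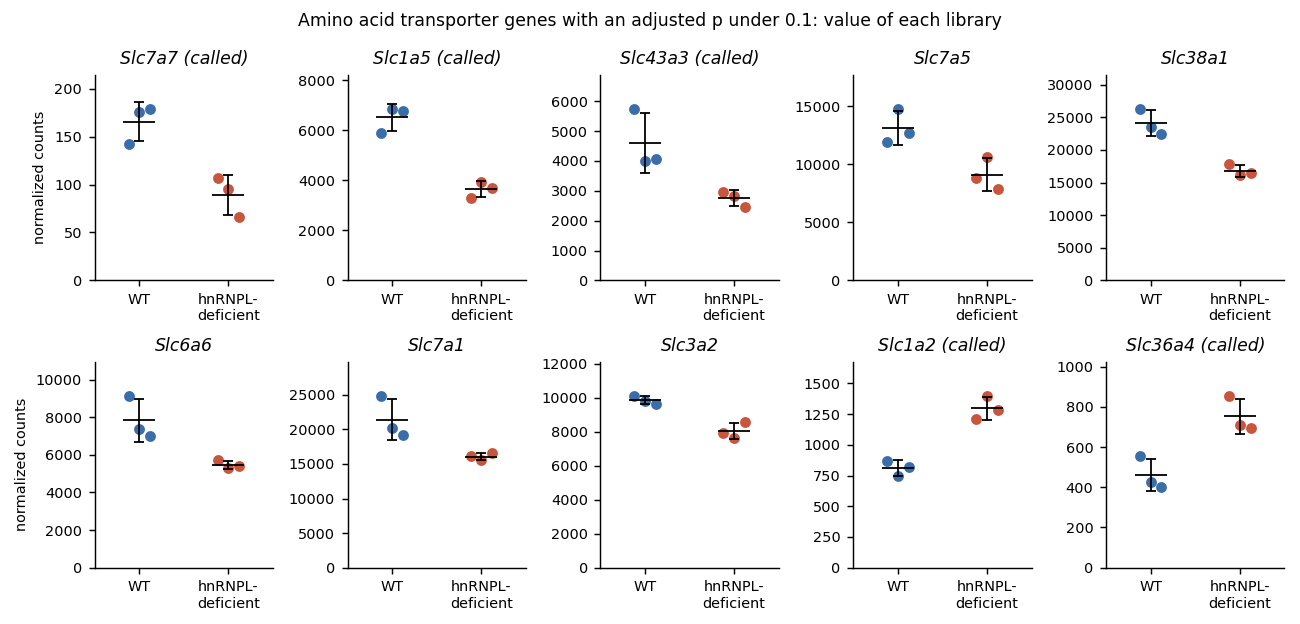
Normalized counts (y axis, from 0) of the 10 transporter genes with an adjusted p under 0.1, a point per library, for WT and hnRNPL-deficient groups (x axis); horizontal bars are means and whiskers are SD, n = 3 per group. The groups do not overlap in any of the 10 panels, with hnRNPL-deficient points below WT in 8 panels and above WT for *Slc1a2* and *Slc36a4*.

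The heavy chains of the paired transporters are *Slc3a2* and *Slc3a1*. *Slc3a2*, which encodes CD98 and carries most light chains to the plasma membrane, had 10092, 9832 and 9607 normalized counts in WT libraries and 7905, 7627 and 8590 in hnRNPL-deficient libraries. All 3 hnRNPL-deficient values were below all WT values, with a log2 fold change of -0.29 (SE 0.09) and an adjusted p of 0.0711 by limma, a 1.23-fold decrease that is too small to be called. The adjusted p was 0.1 or more in 11 of the 17 alternatives (range 0.0336 to 0.264), among them edgeR, DESeq2, quantile normalization, and the removal of any library but hnRNPL-deficient library 3. *Slc3a1*, whose protein partners a cystine carrier of kidney and gut, was near the detection limit of the test, with 15.1, 22.5 and 24.5 in WT and 18, 40.4 and 49.3 in hnRNPL-deficient libraries. Its groups overlapped and it did not pass (log2 fold change 0.68, 95% interval -0.31 to 1.67). *Slc3a1* overlaps *Prepl* on the opposite strand, which had 60.4 times its normalized counts, although the reads were counted by strand.

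Among the light chains, *Slc7a5* encodes LAT1, which exchanges intracellular glutamine for leucine and other large neutral amino acids and is induced when lymphocytes are activated. *Slc7a5* had 11910, 14775 and 12706 normalized counts in WT and 8793, 10638 and 7895 in hnRNPL-deficient libraries. The groups did not overlap, and the log2 fold change was -0.53 (SE 0.13, adjusted p = 0.0383 by limma), a 1.45-fold decrease just under the 1.5-fold threshold. It was called by limma without WT library 1 (-0.60) or without hnRNPL-deficient library 2 (-0.65). It was also called by edgeR (-0.66) and DESeq2 (-0.65) on the reads of 5 libraries. These count tests also leave out hnRNPL-deficient library 2, where *Slc7a5* had its highest hnRNPL-deficient value, so they are not separate from that limma fit. In 5 other alternatives the adjusted p was 0.1 or more, namely limma without WT library 2 (-0.44, adjusted p = 0.130), without WT library 3 (-0.55), without hnRNPL-deficient library 1 (-0.51), with quantile normalization (-0.40) and with no mean-variance trend, so that its side of the test depended on the setting. *Slc7a7*, which encodes y+LAT1, an exchanger of cationic for neutral amino acids, was much less abundant, with 143, 176 and 179 in WT and 106, 94.9 and 65.8 in hnRNPL-deficient libraries. It fell 1.88-fold (log2 fold change -0.91, SE 0.25, adjusted p = 0.0482 by limma), and the call was lost without WT library 2 (adjusted p = 0.146), without WT library 3 (adjusted p = 0.166) and by edgeR (adjusted p = 0.102). *Oxa1l*, a mitochondrial insertase gene that overlaps *Slc7a7* on the opposite strand, had 24.0 times its normalized counts and a log2 fold change of 0.06.

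*Slc7a6*, which encodes the related exchanger y+LAT2, had 3585, 3440 and 3273 normalized counts in WT and 2865, 2996 and 2847 in hnRNPL-deficient libraries. The groups did not overlap, but the difference did not pass by limma (log2 fold change -0.24, 95% interval -0.45 to -0.03, adjusted p = 0.129). *Slc7a11*, which encodes the cystine and glutamate exchanger xCT that feeds glutathione synthesis, had 115, 54.5 and 63.5 in WT and 66.7, 29.3 and 83.6 in hnRNPL-deficient libraries. These values overlapped, with no change detected at this spread (log2 fold change -0.42, 95% interval -1.43 to 0.59). The remaining light chain genes were at 0 in all libraries, except for *Slc7a8*, which had a mean of 1.0.

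The balance of *Slc7a5* with its heavy chain *Slc3a2* was compared within each library. The ratio of their normalized counts was 1.18, 1.5 and 1.32 in WT and 1.11, 1.39 and 0.92 in hnRNPL-deficient libraries. These ranges overlapped, the mean log2 difference was -0.24, and the two-sided exact permutation test over the 3 libraries per group gave p = 0.3.

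The promoter stretches of 4 genes of the paired and lysosomal carriers are shown because a sequence element of the amino acid response was searched for in them. These are the 200 bases before a RefSeq start of each gene on GRCm38.p6. Capitals mark matches to TGATGNAA, the C/EBP-ATF response element, or its reverse complement. The Slc7a7 stretch is chr14:54417945-54418144 on the minus strand, Slc7a11 is chr3:50443614-50443813 on the minus strand, Slc3a2 is chr19:8713898-8714097 on the minus strand, and Slc36a4 is chr9:15709538-15709737 on the plus strand.
Slc7a7: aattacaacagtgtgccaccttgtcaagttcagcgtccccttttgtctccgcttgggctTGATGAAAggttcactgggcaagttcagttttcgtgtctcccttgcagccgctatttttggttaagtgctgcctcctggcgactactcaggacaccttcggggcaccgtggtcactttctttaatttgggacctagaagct
Slc7a11: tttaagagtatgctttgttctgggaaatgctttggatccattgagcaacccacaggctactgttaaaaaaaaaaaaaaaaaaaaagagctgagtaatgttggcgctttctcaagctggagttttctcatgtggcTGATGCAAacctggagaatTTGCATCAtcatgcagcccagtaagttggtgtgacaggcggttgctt
Slc3a2: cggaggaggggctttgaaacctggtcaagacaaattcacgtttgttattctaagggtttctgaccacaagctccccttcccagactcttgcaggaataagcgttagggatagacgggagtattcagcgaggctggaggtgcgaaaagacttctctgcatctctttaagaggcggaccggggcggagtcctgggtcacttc
Slc36a4: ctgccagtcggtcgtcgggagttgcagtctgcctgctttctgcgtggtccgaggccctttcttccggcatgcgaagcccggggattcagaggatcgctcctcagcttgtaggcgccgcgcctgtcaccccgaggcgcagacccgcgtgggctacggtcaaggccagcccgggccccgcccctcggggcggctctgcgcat

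The element occurred in the Slc7a7 stretch, at -141 to -134, and on both strands in the Slc7a11 stretch, at -66 to -59 and -47 to -40. It was not in the Slc3a2 or Slc36a4 stretch. The Slc3a2 start used, at 8713897, lies inside the annotated gene, which begins at 8723369 on the minus strand. That stretch therefore does not cover the region before the annotated beginning of the gene. Windows from 250 bases before to 50 after each start were also searched on both strands. The window of the printed Slc7a7 start held a further match, at -1 to 7, which runs past the end of the printed stretch. Over all windows, 3.97% of 32851 promoters held the element, or 4.51% of the 27025 genes counted over all their windows. Of the 18 tested transporter genes with a promoter in the RefSeq table, 3 held it in some window, namely *Slc7a7*, *Slc7a11* and *Slc1a4*, of which only *Slc7a7* was called changed. The E-box CACGTG, which reads the same on both strands, was in 7.15% of all promoters or 8.09% of genes, and in those of *Slc36a1*, *Slc38a7* and *Slc43a1*, none of which was called. These matches are a description of the letters and say nothing of binding. No promoter entry was found for *Slc7a5*, *Slc1a5*, *Slc38a1*, *Slc43a3* or *Slc6a6*.

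Cationic amino acids such as arginine and lysine enter through the CAT carriers, and *Slc7a1* (CAT1) was the main member. It had 24816, 20189 and 19222 normalized counts in WT and 16097, 15518 and 16567 in hnRNPL-deficient libraries. The groups did not overlap, WT library 1 was the highest, and the log2 fold change was -0.41 (SE 0.11, adjusted p = 0.0559 by limma), a 1.33-fold decrease below the threshold for a call. Its adjusted p was 0.1 or more in 7 of the 17 alternatives (range 0.0182 to 0.146), among them edgeR, DESeq2 and limma leaving out WT library 2 or, of the hnRNPL-deficient libraries, 1 or 2. *Slc7a3* (CAT3), chosen here after its values were seen, ranged from 501 to 599 in WT and from 489 to 533 in hnRNPL-deficient libraries, with overlapping groups. The other 3 members grouped here, *Slc7a2*, *Slc7a4* and *Slc7a14*, had means of 5.2 or less.

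The neutral exchanger *Slc1a5* had the lowest adjusted p among the transporter genes. Its product ASCT2 exchanges neutral amino acids and is a main entry route for glutamine in dividing cells. *Slc1a5* had 5902, 6856 and 6779 normalized counts in WT libraries (mean 6512 ± 530, SD, n = 3) and 3301, 3932 and 3673 in hnRNPL-deficient libraries (mean 3635 ± 317, SD, n = 3). The highest hnRNPL-deficient value was well below the lowest WT value, and the gene fell 1.79-fold (log2 fold change -0.84, SE 0.11, adjusted p = 0.00288 by limma). It was called lower in all 17 alternative analyses. *Slc1a4*, which encodes the related serine and alanine exchanger ASCT1, ranged from 499 to 813 in WT and from 441 to 521 in hnRNPL-deficient libraries and did not pass by limma (log2 fold change -0.44, adjusted p = 0.177).

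*Slc1a2* was the glutamate transporter gene that was expressed. It encodes GLT-1, best known for clearing glutamate around synapses in the brain. Its WT values of 869, 745 and 822 normalized counts were all below the hnRNPL-deficient values of 1212, 1396 and 1280, and the gene rose 1.60-fold (log2 fold change 0.67, SE 0.12, adjusted p = 0.0103 by limma). It was called higher in all 17 alternative analyses. The other 4 members of the high-affinity glutamate group, *Slc1a1*, *Slc1a3*, *Slc1a6* and *Slc1a7*, had means of 1.5 or less.

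The sodium-coupled neutral carriers of the Slc38 family included the most abundant transporter gene by read count. *Slc38a1* (SNAT1), which takes up glutamine, had 26289, 23503 and 22490 normalized counts in WT and 17815, 16110 and 16500 in hnRNPL-deficient libraries. The groups were clearly apart, and the log2 fold change was -0.52 (SE 0.10, adjusted p = 0.0146 by limma), a 1.43-fold decrease that stayed below the 1.5-fold threshold, with an adjusted p under 0.1 in all 17 alternatives. *Slc38a2* (SNAT2), a carrier of small neutral amino acids that is induced by their shortage, had 13396, 13573 and 12393 in WT and 12688, 11690 and 11438 in hnRNPL-deficient libraries. Its groups overlapped and it did not pass by limma (log2 fold change -0.14, 95% interval -0.35 to 0.07, adjusted p = 0.378). The difference of *Slc38a1* from *Slc38a2* in response was not tested.

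*Slc38a10*, a less studied relative, was nearly level, with 3487, 3374 and 3372 normalized counts in WT and 3379, 3398 and 3285 in hnRNPL-deficient libraries. Its log2 fold change was -0.02 (95% interval -0.22 to 0.17) and changed sign to 0.031 with scaling to equal totals and to 0.055 with quantile normalization. *Slc38a9*, which encodes a lysosomal arginine sensor of the mTORC1 pathway, had 919, 1019 and 1001 in WT and 1044, 1132 and 1438 in hnRNPL-deficient libraries. All hnRNPL-deficient values were above those of WT, but the difference did not pass (log2 fold change 0.29, 95% interval -0.04 to 0.61, adjusted p = 0.237). *Slc38a6* and *Slc38a7*, chosen here after their values were seen, had log2 fold changes of 0.75 and 0.23 and also did not pass (adjusted p = 0.165 and 0.365 by limma), and the other 5 members had means of 3.6 or less.

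The carriers of the Slc36 family, grouped here under the label proton-coupled, act at lysosomes and the cell surface. *Slc36a4* (PAT4) had 554, 426 and 404 normalized counts in WT and 854, 711 and 698 in hnRNPL-deficient libraries. It rose 1.64-fold, with no overlap between groups (log2 fold change 0.72, SE 0.17, adjusted p = 0.0285 by limma), and of the 17 alternatives the call was lost in 1, without WT library 3 (adjusted p = 0.113). *Slc36a1* (PAT1), a lysosomal member, ranged from 313 to 427 in WT and from 320 to 437 in hnRNPL-deficient libraries, which overlapped. *Slc36a2* and *Slc36a3* had means of 1.5 and 4.6.

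Of the 3 tested members of the Slc43 family, 1 was called. *Slc43a3*, whose product carries purine nucleobases rather than amino acids, had 5747, 3988 and 4052 normalized counts in WT and 2967, 2834 and 2469 in hnRNPL-deficient libraries. It fell 1.65-fold without overlap (log2 fold change -0.72, SE 0.16, adjusted p = 0.0221 by limma). WT library 1 was far above the other WT libraries, and leaving it out gave a log2 fold change of -0.55 (adjusted p = 0.0274), which is under the 1.5-fold threshold. *Slc43a2* (LAT4), a facilitated carrier of branched-chain amino acids, had 1085, 1389 and 1458 in WT and 1671, 1936 and 1550 in hnRNPL-deficient libraries. The values did not overlap, and the difference did not pass (log2 fold change 0.40, 95% interval 0.06 to 0.73, adjusted p = 0.122). *Slc43a1* (LAT3) ranged from 365 to 426 in WT and from 295 to 387 in hnRNPL-deficient libraries, which overlapped.

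The Slc6 family carries amines, osmolytes and amino acids with sodium and chloride. *Slc6a6*, the taurine transporter gene, was the abundant member, with 9119, 7374 and 6982 normalized counts in WT and 5709, 5303 and 5406 in hnRNPL-deficient libraries. The groups did not overlap, and the log2 fold change was -0.51 (SE 0.12, adjusted p = 0.0285 by limma), a 1.42-fold decrease below the threshold for a call, with an adjusted p under 0.1 in all 17 alternatives. The other 2 tested members taken by the rule, *Slc6a8* for creatine and *Slc6a9* for glycine, had overlapping groups and did not pass (log2 fold changes -0.22 and -0.60, adjusted p = 0.796 and 0.183 by limma). The remaining 16 Slc6 genes taken by the rule had means of 9.7 or less, and 7 of them were at 0 in every library, among them the noradrenaline and dopamine transporter genes *Slc6a2* and *Slc6a3*.

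Levels of different genes were compared per kb of annotated exon. In WT libraries *Slc7a5* was highest, with 20.9% ± 2.3 (SD, n = 3) of the summed transporter level per kb, followed by its partner *Slc3a2* (16.4% ± 0.32), *Slc7a1* (10.9% ± 1.3), *Slc1a5* (9.21% ± 0.97), *Slc38a2* (8.74% ± 0.13) and *Slc38a1* (8.23% ± 0.47). The 10 highest genes, which also include *Slc43a3*, *Slc6a6*, *Slc7a6* and *Slc38a10*, made up 93.5% of that sum. Of the 24 pairs of neighbours in this order, the WT ranges of 10 were apart and those of 14 overlapped. *Slc7a5*, *Slc3a2*, *Slc7a1* and *Slc1a5* were apart from each other, whereas *Slc1a5*, *Slc38a2* and *Slc38a1* could not be ordered beyond their spread. In hnRNPL-deficient libraries *Slc1a5* took 6.73% ± 0.53 of the sum and *Slc38a2* 10.4% ± 0.59, which describes the change in makeup and was not tested.

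**Figure D3:**
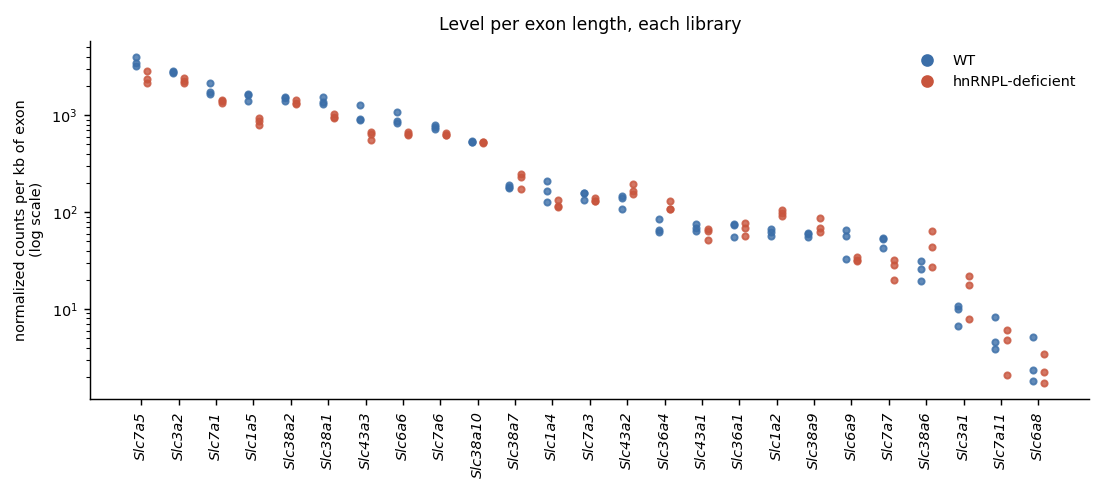
Normalized counts per kb of annotated exon (y axis, log scale) of the 25 tested transporter genes (x axis, ordered by WT mean), a point per library, with WT in blue and hnRNPL-deficient in red. *Slc7a5* and *Slc3a2* are highest in WT, and the levels span more than 3 orders of magnitude down to *Slc6a8*.

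Amino acid shortage induces a set of genes through GCN2 and ATF4, and a list of 30 such genes and regulators was examined because several transporter genes belong to that response. This list and those that follow were chosen with earlier results of these data known. Their shares against all tested genes therefore describe the lists and test nothing. Of 27 tested genes, 3 were called higher (11.1%, against 7.28% of all tested genes) and 4 lower (14.8%, against 4.08%), with a median log2 fold change of -0.17. The genes called higher were *Ddit4*, an inhibitor of mTORC1 signalling (1.55), *Sesn2*, a leucine sensor (1.47), and *Asns*, which encodes asparagine synthetase (0.71), where the values in parentheses are log2 fold changes. The genes called lower were *Pycr1* of proline synthesis (-0.87), the transcription factor gene *Atf3* (-0.75), *Mthfd2* of mitochondrial folate metabolism (-0.64) and *Eif2ak4*, which encodes GCN2 itself (-0.62). The members of this list thus moved in both directions. The call of *Atf3* was lost without WT library 2 (-0.71, adjusted p = 0.102 by limma) or hnRNPL-deficient library 2 (-0.58), that of *Eif2ak4* without WT library 2 (-0.56) or hnRNPL-deficient library 1 (-0.53), and that of *Mthfd2* without hnRNPL-deficient library 3 (-0.53). Quantile normalization also ended the calls of *Eif2ak4* (-0.58) and *Mthfd2* (-0.56), equal totals that of *Eif2ak4* (-0.56) and DESeq2 that of *Atf3* (-0.57).

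*Asns* had 606, 1139 and 800 normalized counts in WT and 1303, 1368 and 1367 in hnRNPL-deficient libraries, with an adjusted p of 0.0615 by limma, and its call was lost in 7 of the 17 alternatives, among them edgeR and the removal of any library but WT library 2 (adjusted p = 0.109 to 0.164 by limma). *Sesn2* had 882, 1163 and 1074 in WT and 2999, 2942 and 2649 in hnRNPL-deficient libraries (adjusted p = 0.000528 by limma). The hnRNPL-deficient values were far above those of WT for *Sesn2*, whereas for *Asns* WT library 2 came close to them. *Atf4* mRNA had 12379, 15268 and 14707 in WT and 11461, 14137 and 12668 in hnRNPL-deficient libraries, which overlapped, with a log2 fold change of -0.15 (95% interval -0.42 to 0.13), which was 0.0058 with quantile normalization. *Ddit3*, which encodes the stress factor CHOP, and *Chac1*, a glutathione-degrading enzyme gene, did not pass (log2 fold changes 0.52 and 0.23, adjusted p = 0.203 and 0.558 by limma). The fold change of *Chac1* was -0.031 on the log2 scale without WT library 1.

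Of 33 tested genes for lysosomal amino acid sensing and mTORC1 control, 5 were called higher (15.2%, against 7.28% of all tested genes) and 0 lower by limma (against 4.08%), and the median log2 fold change was -0.04. This list too was chosen with earlier results of these data known. Of genes that were lower by limma, *Mios* alone had an adjusted p under 0.1, with a fold change too small for a call, edgeR and DESeq2 also called 0 lower, and 4 genes had an unadjusted p under 0.05 and were lower by limma. The genes called higher were *Sesn2*, which is also in the amino acid response list, and *Sesn1* (0.80), both leucine sensors or their relatives, *Castor2* (1.22), a relative of an arginine sensor, *Bmt2* (0.85), the S-adenosylmethionine sensor SAMTOR, and *Nprl3* (0.59), a subunit of the GATOR1 complex, with log2 fold changes in parentheses. The products of all 5 are known as inhibitors of mTORC1 or as parts of complexes that inhibit it when amino acids are scarce. Whether a shortage of amino acids or something else raised these genes here was not tested. Related genes of the list, chosen after their values were seen, were not called. *Castor1* (-0.64, adjusted p = 0.318 by limma), *Depdc5* (0.16, adjusted p = 0.313) and *Nprl2* (0.18, adjusted p = 0.431) did not pass. *Sesn3* passed by the adjusted p but not by the fold (0.45, adjusted p = 0.0348). *Castor2* had 255, 263 and 278 normalized counts in WT and 650, 660 and 555 in hnRNPL-deficient libraries. *Nprl3* lay just above the fold threshold and its call was lost in 5 of 17 alternatives, among them the removal of WT library 1 (0.51) or hnRNPL-deficient library 2 (0.54), whereas those of *Sesn1*, *Sesn2*, *Castor2* and *Bmt2* were kept in all 17.

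Of 10 tested carriers of amino acids and peptides that the symbol rule did not take, *Slc6a20b* among them, 1 was called in each direction (10%, against 7.28% of all tested genes higher and 4.08% lower). *Ctns*, the lysosomal cystine exporter gene, had 512, 509 and 507 normalized counts in WT and 895, 814 and 783 in hnRNPL-deficient libraries, a 1.63-fold increase (log2 fold change 0.70, adjusted p = 0.00944 by limma). *Slc16a10* (TAT1), which carries aromatic amino acids, had 880, 677 and 617 in WT and 356, 369 and 347 in hnRNPL-deficient libraries, a 2.0-fold decrease (log2 fold change -1.0, adjusted p = 0.00727 by limma). In both genes the groups were apart, and the calls were kept in all 17 alternatives. The peptide carrier gene *Slc15a2*, chosen after its values were seen, had the largest log2 fold change of this list, 2.49, but its libraries ranged from 9.3 to 206 in WT and from 188 to 443 in hnRNPL-deficient samples, and it did not pass (adjusted p = 0.122 by limma).

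Of 12 tested genes for partners and turnover of the transporters, 2 were called higher (16.7%, against 7.28% of all tested genes) and 0 lower by limma (against 4.08%), edgeR or DESeq2, with 1 gene lower at an unadjusted p under 0.05 by limma. Of the 12 log2 fold changes 1 was below 0, against 52.7% of those of all tested genes, in a list chosen with earlier results of these data known. *Arrdc3*, an arrestin-related adaptor that brings ubiquitin ligases to membrane proteins, had 678, 770 and 714 normalized counts in WT and 2431, 2019 and 2503 in hnRNPL-deficient libraries. It rose 3.20-fold without overlap (log2 fold change 1.68, SE 0.12, adjusted p = 0.000215 by limma), and the call was kept in all 17 alternatives. *Laptm4b*, a lysosomal membrane protein gene whose product recruits the LAT1 and CD98 pair to lysosomes, had 23.2, 37.2 and 34.4 in WT and 54.1, 52.5 and 68.5 in hnRNPL-deficient libraries. Its adjusted p was 0.097 by limma, and the call was lost in 11 of the 16 alternatives that tested it, including each of the 6 that leave out a library (adjusted p = 0.147 to 0.203 by limma).

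**Figure D4:**
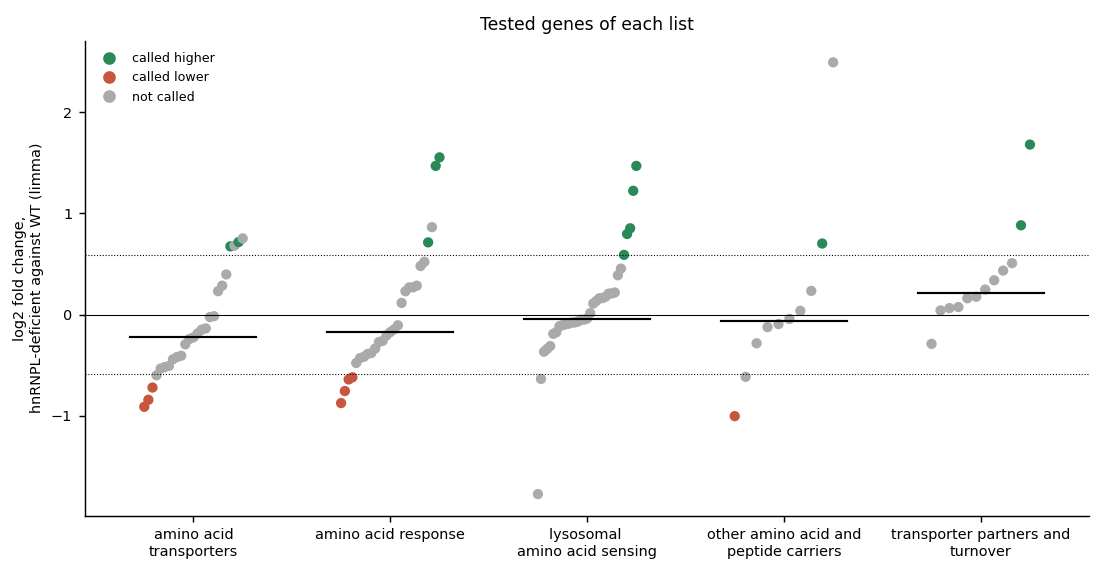
Log2 fold change of hnRNPL-deficient against WT by limma (y axis) for the tested genes of the transporter families and of the 4 other lists (x axis), a point per gene, sorted within each list; colours mark called genes, black bars are medians and dotted lines mark a fold change of 1.5. The transporter median is at -0.22, and the 5 called sensing genes all lie above 0.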

How the data were processed

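RNA-seq was analysed for 3 WT and 3 hnRNPL-deficient libraries, grouped by the genotype in the labels. The authors trimmed reads with fastp 0.23.1, aligned them to mm10 with STAR 2.7.9a, counted them by strand per gene with featureCounts and GENCODE annotation, and divided counts by DESeq2 1.38.2 size factors. The deposited values used here are these normalized counts, a signal with 1 column per library. The authors' own log2 fold changes, SEs, statistics and p-values were not used.

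Every value was a whole multiple of the smallest in its column, within 0.01 of a read. This held for hnRNPL-deficient library 2 as well, but its step is close to 1 (1.01), and its values were left out of the count tests as a precaution. The count tests, edgeR 4.0.16 and DESeq2 1.42.0, thus ran on 5 libraries, with hnRNPL-deficient libraries 1 and 3 only, and were alternatives. A difference between these tests and the main test mixes the method with the left-out library. The main test was limma 3.58.1 on log2 of the normalized count plus 1, with the variance modelled as a trend of the mean, tested first on simulated data. Fold changes are on this scale, which understates those of low genes. Alternatives were other pseudocounts (0.5 and 5), filters, scalings and variance models, a block for the replicate number, *Xist* as a covariate, and each library left out.

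Genes named in full are called members, uncalled members above a mean of 1000, and *Slc3a1*, *Slc3a2*, *Slc7a5*, *Slc7a11*, *Slc1a5* and *Slc38a2*, with called genes of the lists and *Atf4*, *Asns*, *Ddit3*, *Sesn2* and *Chac1*. Others are said to have been chosen with their values known, or are given to account for every member. The members and lists were chosen with earlier results of these data known. Exon lengths and overlapping genes come from GENCODE on GRCm38, an earlier release than the authors', and promoters from RefSeq. The list symbols *Mars1* and *Slc66a1* were matched as *Mars* and *Pqlc2*, and for a symbol with more than 1 entry the higher was taken.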

Additional observations from a re-analysis of the deposited data

How the results depend on the processing

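Of 17 named transporter genes, 11 kept their call and sign in every alternative that tested them, which is all 17 for each but *Slc3a1* (16, since its mean is under 50). Among these 11 only *Slc1a5* and *Slc1a2* were called, and the rest, such as *Slc3a2* and *Slc7a1*, stayed uncalled. The calls of *Slc43a3*, *Slc7a7* and *Slc36a4* were each lost in some alternative. Of 19 genes named from the lists or as a check, 11 also kept their call and sign throughout, with *Ddit3* uncalled. Leaving out a library each time gave 1 to 3 transporter genes called higher (1 without WT library 3) and 2 to 5 called lower (5 without WT library 1), and by the adjusted p alone 1 to 3 higher and 4 to 9 lower. Also by the adjusted p alone, 5 were lower with quantile normalization, with no mean-variance trend and by edgeR. For the lists, leaving out a library gave 2 to 4 amino acid response genes called lower (2 also with quantile normalization), 0 to 1 sensing genes called lower (1 with quantile normalization), 1 to 2 other carriers called higher, and 1 turnover gene called higher, which was also the count with no filter on low values, a minimum mean of 50, quantile normalization, the *Xist* covariate, edgeR and DESeq2. *Slc38a10* changed sign to 0.031 with equal totals and 0.055 with quantile normalization, and *Atf4* to 0.0058 with quantile normalization. Leaving out a library moved *Slc7a11* between -0.72 and 0.022 and *Chac1* between -0.031 and 0.38 on the log2 scale. The sum over all members was 15.7% to 24.8% below WT in all alternatives that were run for it. The causes were not tested. Shares of all tested genes are given for the main fit, edgeR and DESeq2 only, so counts in the other alternatives have no background beside them. With 3 libraries per group, moderate changes in genes with few reads, such as *Slc7a11* and *Slc3a1*, could not be shown.

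The labels number the replicates alike in both groups, but same-numbered libraries deviated together only in part (r = 0.43, 0.32 and 0.07 across genes). WT library 3 resembled hnRNPL-deficient library 2 (r = 0.31), the other library with high *Xist*, more than its own number. These values cannot settle whether the libraries were paired, and the numbers were not taken as a pairing. With the replicate number as a block, 3 members were called higher and 4 lower, and by the adjusted p alone 4 were higher and 11 lower. No share of all tested genes is given for this fit. In the same fit 1 sensing gene was called lower and 2 other carriers were called higher.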
